A study of Mus musculus with 12 samples.

Results

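The 9 genes described here encode proteins that decide whether a lymphocyte stays in the gut wall, enters it or leaves it: *Cd69*, *Itgae*, *Itga1*, *Itga4*, *Itgb7*, *Itgal*, *Itgb2*, *S1pr1* and *Klf2*. They were taken by name from the 23284 genes of the FPKM table, and all 9 were found there. RNA had been sequenced from ILC3s, group 3 innate lymphoid cells that make IL-22 and IL-17A at mucosal surfaces, sorted from the small intestine of HR-1 hairless mice aged 18 weeks. Per the study's methods, PA milk mice were born to dams on normal chow and moved after birth to foster dams, which ate chow supplemented with palmitic acid (8% w/w) and nursed them. ND mice had the milk of dams on normal chow. The cells came from the intraepithelial (IEL) layer or from the lamina propria (LP), with 3 libraries each of PA IEL, ND IEL, PA LP and ND LP, 12 in all. A library is named below by its group and replicate number, such as PA LP 2. The labels do not say whether replicates were separate mice or pools, so p-values measure the spread between these libraries, which may be technical.

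Tissue residency of lymphocytes rests on retention signals and on the loss of exit signals. CD69 is a surface lectin that binds the sphingosine-1-phosphate receptor S1PR1 and has it taken off the cell surface, so that the cell no longer follows sphingosine-1-phosphate out into lymph. KLF2 is a zinc finger transcription factor that switches *S1pr1* on. The integrin chain alpha E (*Itgae*, CD103) pairs with beta 7 (*Itgb7*) to hold cells on E-cadherin of the epithelium, whereas alpha 4 (*Itga4*) pairs with beta 7 to bring cells from blood into the gut through MAdCAM-1 on vessels. Alpha 1 (*Itga1*, CD49a) binds collagen, and alpha L (*Itgal*) with beta 2 (*Itgb2*) forms LFA-1, which binds ICAM-1. *Klf2* and *S1pr1* are also well known for their activity in endothelial cells and in naive T cells.

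Values are FPKM, fragments per kilobase of transcript, scaled to the fragments mapped, so levels can be set side by side between genes. Reads per library, worked out from the steps between low values, numbered 8.75 to 14.58 M (M, 1000000 reads). PA IEL 2, PA LP 2 and ND IEL 2 stood apart, with 4390, 5637 and 7863 genes at an FPKM of 1 or more against 8406 to 11378 in the other 9 libraries. For the genes described here, most results that rest on these 3 libraries are given with and without them. Fold changes of other genes named below are from all 12 libraries. Of 15 markers of ILC3s, 1 to 14 reached an FPKM of 1 in PA IEL, 5 to 15 in ND IEL, 2 to 12 in PA LP against 11 to 15 in ND LP. The lowest counts, 1, 2 and 5 of the 15, were those of PA IEL 2, PA LP 2 and ND IEL 2, so the label of ILC3s was not borne out by most of these markers there. *Il23r*, the receptor chain through which ILC3s respond to IL-23, was picked from the list after its values were seen. Its FPKM for replicates 1, 2 and 3 in IEL was 34.7, 0 and 13.7 with PA milk, beside 1.47, 0 and 6.97 with ND. In LP it was 0, 0.0400 and 2.69 with PA milk, beside 2.85, 22.8 and 0.380 with ND. It was thus under 1 FPKM in 5 of the 12 libraries, PA LP 1 and ND LP 3 among them. In PA LP 1 and ND LP 3, however, 8 and 12 of the 15 markers reached an FPKM of 1. In bulk RNA of this kind, fewer cells of a type and less RNA per cell cannot be told apart.

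Of the egress genes, *Klf2* separated the layers and *S1pr1* did so apart from 1 library. On GRCm38, the build called mm10, GENCODE places *Klf2* on chromosome 8 between 72319033 and 72321656. It stood at 24.4, 57.1 and 34.6 in PA IEL 1, 2 and 3 and 24.6, 19.3 and 56.3 in ND IEL. In LP it was 452, 64.2 and 975 in PA milk, beside 309, 532 and 314 in ND. All 6 LP libraries were above all 6 IEL libraries, with the closest approach between PA LP 2 at 64.2 and PA IEL 2 at 57.1. The mean was 36.0 ± 16.7 (SD, n = 6) in IEL and 441 ± 306 (SD, n = 6) in LP, 12.2 times higher. On the log2(FPKM + 1) scale, on which a fold change understates the change of low values, the limma log2 fold change of *Klf2*, IEL minus LP, was -3.31 (standard error 0.61, adjusted p = 0.0186 over all genes tested). In a two-sided exact permutation test with labels exchanged within each diet, p was 0.005, the smallest that the design allows. *Klf2* was the only called gene of the 9 in the comparison of the layers, where limma called 0.88% of the 12502 genes tested. It was also the only one of the 9 whose layers did not overlap, which held for 1.24% of all genes tested. The call ended when any of 5 libraries was left out (PA LP 1, ND IEL 1, ND IEL 2, ND LP 2 or ND LP 3; limma adjusted p = 0.0505 to 0.0677), although the log2 fold change stayed between -3.87 and -2.89 over all 12 such fits. It also ended with no filter (adjusted p = 0.0748 from limma), after scaling on genes common to leukocytes (0.0552) and with limma-voom on scaled counts (0.484). Without PA LP 2 the log2 fold change was -3.87 (limma adjusted p = 0.000255), and without PA LP 2 and PA IEL 2 together it was -4.03 (0.000137).

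*S1pr1*, on chromosome 3 from 115710433 to 115715072, showed the widest gap in level between the layers. It was at 0.109, 0.0258 and 0.112 FPKM in PA IEL 1, 2 and 3, from 3, 1 and 4 reads. In ND IEL it was at 3.65, 0.0276 and 3.52, from 160, 1 and 153 reads. In PA LP it was at 171, 0 and 348 and in ND LP at 88.7, 173 and 56.8, so 5 of the 6 LP libraries were far above every IEL library and PA LP 2 was listed at 0. The layer log2 fold change of -5.15 (standard error 1.22, limma adjusted p = 0.0552) did not pass the threshold. Without PA LP 2 it was -6.47 and was called (limma adjusted p = 0.000183), as it was without PA LP 2 and PA IEL 2 together (-6.45, adjusted p = 0.000137). The exact permutation test within diets gave p = 0.02 (two-sided). A count below 3 reads has no order, so the 3 PA IEL libraries and ND IEL 2 are at or near the floor for this gene.

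**Figure D1:**
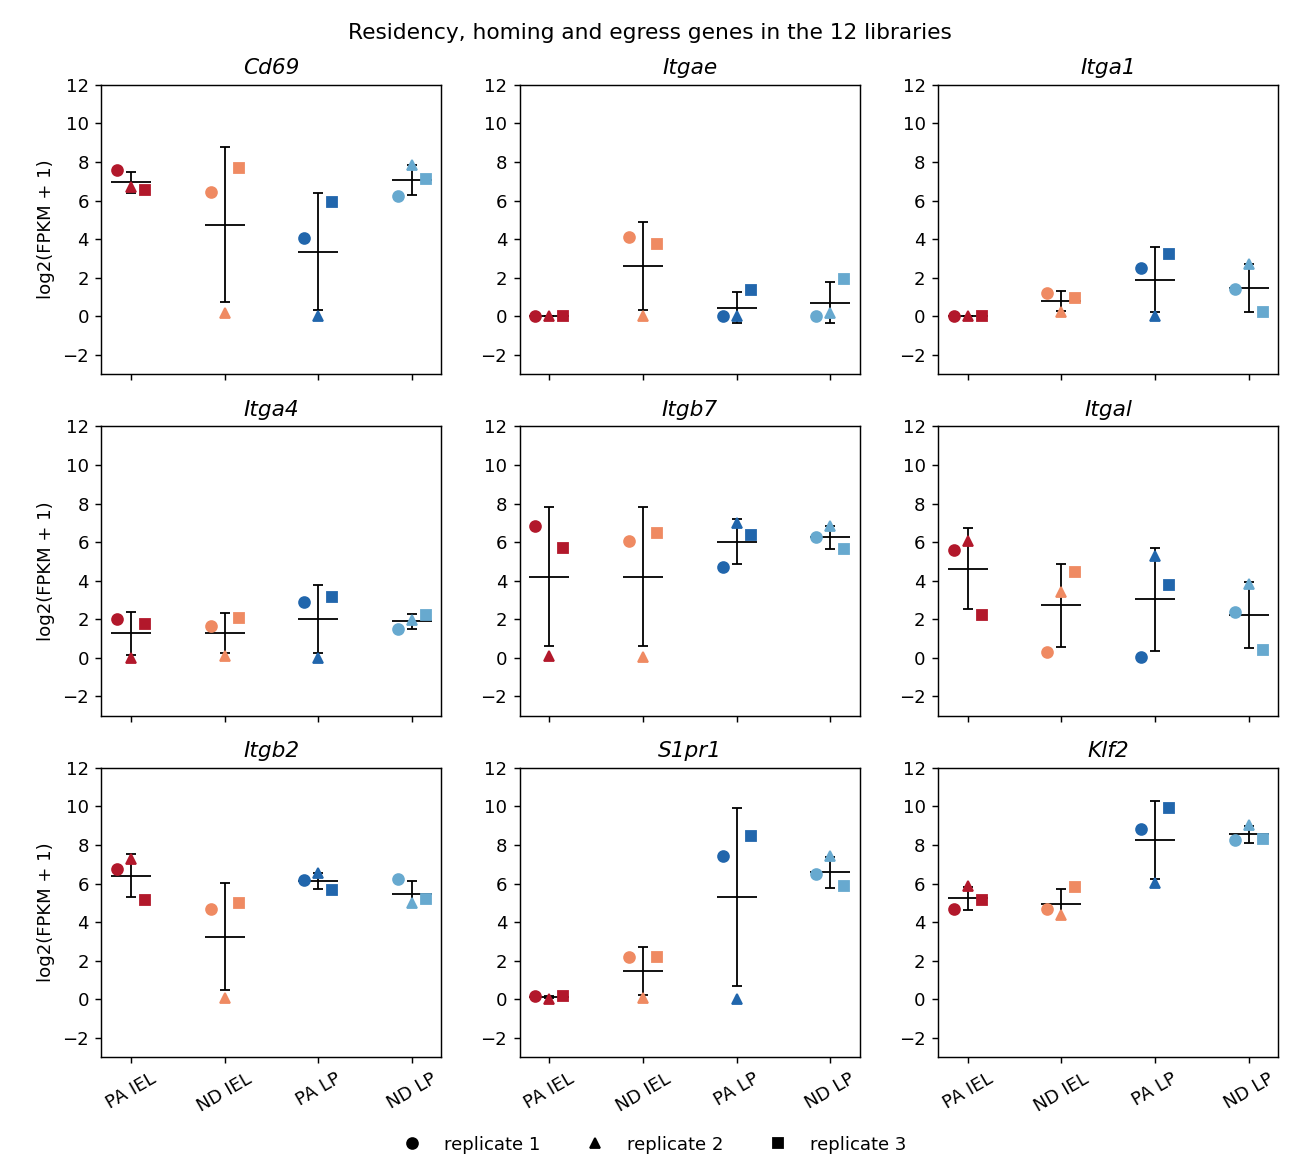
Level of each gene as log2(FPKM + 1) in the 12 libraries, by group on the x axis; symbols are replicates, the long dash is the group mean and bars are 1 SD (n = 3). *Klf2* is higher in all 6 LP libraries than in any IEL library, *S1pr1* is so in 5 of 6, and replicate 2 lies near 0 for *Itgb7* in both IEL groups.

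The promoter of *Klf2* is shown because it is the one called gene. RefSeq promoters on GRCm38.p6, from 250 bases before to 50 bases after the annotated start, were at hand for 4 of the 9 genes (*Klf2*, *Itga1*, *Itga4* and *Itgb7*). That of *Klf2* is at chr8:72318812-72319111 on the plus strand. That of *Itga1*, whose level followed *Klf2* in rank, is at chr13:115101915-115102214 on the minus strand. Both are written from 5′ to 3′, with capitals for the letters TAAATTTA (the core bound by MEF2 factors, which reads the same on both strands), GGGCGG (GC box) and CACCC (the core of sites bound by KLF factors), each searched on both strands.
Klf2: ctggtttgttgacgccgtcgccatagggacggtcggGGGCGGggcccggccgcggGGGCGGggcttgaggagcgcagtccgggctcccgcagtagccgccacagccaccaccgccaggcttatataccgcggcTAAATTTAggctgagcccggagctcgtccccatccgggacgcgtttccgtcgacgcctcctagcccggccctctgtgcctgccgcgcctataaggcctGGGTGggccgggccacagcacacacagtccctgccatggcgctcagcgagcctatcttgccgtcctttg
Itga1: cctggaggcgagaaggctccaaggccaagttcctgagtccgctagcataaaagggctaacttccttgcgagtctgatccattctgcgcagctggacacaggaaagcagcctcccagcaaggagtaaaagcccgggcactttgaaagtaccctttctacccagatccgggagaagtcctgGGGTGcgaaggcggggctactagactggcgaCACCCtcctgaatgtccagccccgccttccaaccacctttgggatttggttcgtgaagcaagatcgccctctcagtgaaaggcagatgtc
The *Klf2* stretch held TAAATTTA 1 time, starting at position -117 from the annotated start, GGGCGG 2 times and CACCC 1 time. TAAATTTA occurred in 0.545% of the 32851 promoters of the table, GGGCGG in 35.7% and CACCC in 57.5%. *Itga1* held CACCC 2 times, and *Itga4* and *Itgb7* 4 times each, without TAAATTTA in any of the 3. These matches are letters in a window and were not tested for binding.

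Markers of endothelial and stromal cells varied between the layers together with *Klf2* and *S1pr1*. Of 10 such markers, 1 to 2 reached an FPKM of 1 in the IEL libraries, with a summed FPKM of 2.51 to 29.0, and 0 to 10 did so in the LP libraries, with a sum of 0.273 to 2762. All 10 had a lower mean in IEL, 9 of them with an unadjusted p under 0.05 and 0 with an adjusted p under 0.05 by limma. Between the layers, 1681 of the 12502 genes tested had an unadjusted limma p under 0.05, in either direction. PA LP 2 had the lowest sum of all 12 libraries, 0.273, with *Klf2* at 64.2 FPKM and *S1pr1* listed at 0. ND LP 1 had a sum of 115, of which *Pecam1* made up 85.9 and *Tek* 21.7, with *Lum* at 0 and *Dcn* at 0.0909. There *Klf2* was at 309 and *S1pr1* at 88.7. Over the 12 libraries the summed markers had a Spearman's rho of 0.71 with *Klf2* and 0.79 with *S1pr1*. Within the 6 IEL libraries rho was 0.32 and -0.12, and within the 6 LP libraries 0.54 and 0.37. These are descriptions over libraries that share their layer. Markers of T cells also varied, with 1 to 11 of 11 markers reaching an FPKM of 1 in IEL and 1 to 10 in LP. Their sum had a rho of 0.71 with *S1pr1* and 0.37 with *Klf2* over the 12 libraries. Within the 6 IEL libraries these were 0.89 and -0.03, and within the 6 LP libraries 0.83 and 0.77. *Cd3e*, 1 of the 11 T cell markers, was listed at 0 in all 3 PA IEL libraries, in PA LP 2 and in ND IEL 2. Other T cell markers were found in PA IEL, where 5 of the 11 reached an FPKM of 1 in PA IEL 1 and 3. Among them *Cd8b1* was at 129 and 37.0 and *Lck* at 38.2 and 12.1. In PA IEL 2 only *Cd4*, at 26.1, reached it. CD4 is itself named in the sort gate of the study's methods, and the study states that some ILC3s can carry it. The part of endothelial cells and T cells in the layer difference was not tested.

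**Figure D2:**
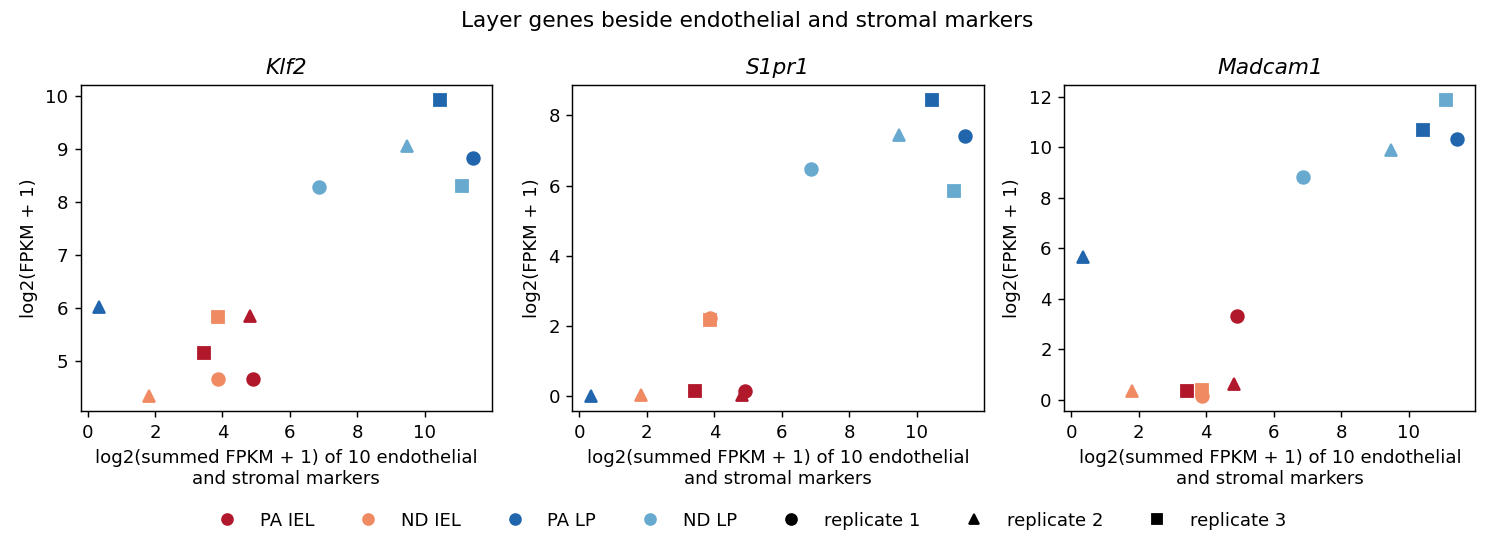
*Klf2*, *S1pr1* and *Madcam1* as log2(FPKM + 1) against the log2(summed FPKM + 1) of 10 endothelial and stromal markers, 1 point per library. Apart from PA LP 2 at the far left, the LP libraries have both higher marker sums (115 to 2762) and higher values of the 3 genes than the IEL libraries.

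Of the genes of 10 integrin ligands, 1 was called between the layers, beside 0.88% of the 12502 genes tested. *Madcam1*, the vessel ligand of alpha 4 beta 7, was at 8.86, 0.540 and 0.260 FPKM in PA IEL 1, 2 and 3 and at 0.106 to 0.321 in ND IEL. In LP it was at 1269, 49.6 and 1641 in PA milk, beside 449.9, 959 and 3765 in ND. Its layer log2 fold change was -8.69 (standard error 0.91, limma adjusted p = 0.000387), lower in IEL, and was the only called gene of 10 integrin ligands. *Cdh1*, which encodes E-cadherin, the ligand of alpha E beta 7, lay the other way, at 47.7 to 91.3 FPKM in IEL and 1.65 to 32.4 in LP. The layers of *Cdh1* did not overlap, which held for 1.24% of all genes tested. Its log2 fold change of 2.42 (standard error 0.67) did not pass the threshold (limma adjusted p = 0.0958). Summed FPKM of 12 epithelial markers was 3934 to 83072 in IEL and 350.5 to 5788 in LP, and *Cdh1* is itself an epithelial gene. Of the 10 ligands, 9 had a lower mean in IEL and 5 of these an unadjusted p under 0.05, beside 1681 of the 12502 genes tested in either direction. Their median log2 fold change was -2.46 against -0.08 for all genes tested. *Vcam1*, a ligand of alpha 4 beta 1 and the highest of the list, was at 23.5 to 563 FPKM in IEL and 122 to 645 in LP, and *Icam2*, a ligand of LFA-1, at 0 to 124 and 0 to 424. *Col1a1* and *Col4a1*, collagen chains, reached at most 0.0176 and 1.22 FPKM in IEL and 56.9 and 36.2 in LP (limma adjusted p = 0.0793 and 0.158).

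Taken over both diets, the retention genes did not separate the layers. *Cd69*, on chromosome 6 from 129267325 to 129275436, was at 189, 103 and 92.9 FPKM in PA IEL 1, 2 and 3 and at 85.9, 0.110 and 203 in ND IEL. In PA LP it was at 16.0, 0 and 60.9 and in ND LP at 75.9, 225 and 137. Low values were thus found in PA LP and in ND IEL 2, where 0.110 FPKM came from 2 reads. The layer log2 fold change was 0.64 (standard error 1.17, limma adjusted p = 0.893). It averages differences of opposite sign. In PA milk, IEL minus LP was 3.60, and the layers of *Cd69* did not overlap. In ND it was -2.31, and they overlapped. The share of all genes without overlap of the layers within a diet was not counted.

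*Itgae*, on chromosome 11 from 73090583 to 73147446, was listed at 0 in all 3 PA IEL libraries, in ND IEL 2 and in PA LP 1 and 2. It reached 16.5 and 12.3 FPKM in ND IEL 1 and 3, from 930 and 689 reads, 1.56 in PA LP 3, and 0.0199, 0.131 and 2.79 FPKM in the libraries of ND LP. Only 4 of the 12 libraries were thus at 1 FPKM or more, 2 of them in IEL. Both ND IEL libraries with *Itgae* had 10 or 11 of the 11 T cell markers at 1 FPKM or more, and the sum of those markers had a rho of 0.81 with *Itgae* over the 12 libraries and 0.78 within IEL. The 10 markers of NK cells and ILC1s also had a rho of 0.78 within IEL (0.40 over all 12), with 9 and 8 of them at 1 FPKM or more in ND IEL 1 and 3. The sort was lineage negative, a gate that in the study's stainings takes out cells with T cell receptors and NK cells. The part of either cell type in the values of *Itgae* was not tested. *Itga1*, on chromosome 13 from 114953096 to 115101964, was listed at 0 in all 3 PA IEL libraries. It was at 1.28, 0.162 and 0.955 in ND IEL, at 4.58, 0 and 8.47 in PA LP and at 1.66, 5.64 and 0.167 in ND LP. Its layer log2 fold change of -1.29 (standard error 0.64, limma adjusted p = 0.411) did not pass the threshold, and the exact permutation test within diets gave p = 0.08 (two-sided).

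The gut homing pair differed in level between its chains. *Itga4*, on chromosome 2 from 79255426 to 79333123, never exceeded 7.90 FPKM. It was at 3.10, 0 and 2.43 in PA IEL, 2.14, 0.0810 and 3.22 in ND IEL, 6.46, 0 and 7.90 in PA LP against 1.77, 2.95 and 3.67 in ND LP. *Itgb7*, the beta chain shared with alpha E, lies on chromosome 15 from 102215995 to 102231944. It was at 114, 0.0590 and 50.5 in PA IEL, 66.0, 0.0316 and 88.7 in ND IEL, 25.2, 124 and 80.6 in PA LP against 75.2, 112 and 49.3 in ND LP. It was at 25.2 FPKM or more in 10 of the 12 libraries, and PA IEL 2 and ND IEL 2 held 2 reads and 1 read of it. *Itgb7* was above *Itga4* in these 10 libraries, and in the other 2 it was under the floor of 3 reads, so no order is given there. Layer log2 fold changes were -0.68 (standard error 0.76) for *Itga4* and -1.92 (standard error 1.21) for *Itgb7*, with limma adjusted p of 0.79 and 0.555. Without PA IEL 2 that of *Itgb7* was -0.89, and without the 3 libraries with the fewest genes it turned to 0.38.

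The chains of LFA-1 overlapped between the layers. *Itgb2*, on chromosome 10 from 77530252 to 77565708, was at 107, 156 and 34.5 FPKM in PA IEL 1, 2 and 3 and at 24.8, 0.0294 and 31.0 in ND IEL. In LP it was at 72.5, 91.2 and 50.1 in PA milk, beside 75.3, 30.6 and 35.6 in ND, and 11 of 12 libraries were at 24.8 or more. *Itgal*, on chromosome 7 from 127296260 to 127335138, ranged widely within each group, at 46.4, 66.1 and 3.59 in PA IEL against 0.218, 9.70 and 20.8 in ND IEL. It was at 0.0466, 37.2 and 12.7 in PA LP against 4.27, 13.1 and 0.326 in ND LP. Layer log2 fold changes were -0.98 (standard error 0.82) for *Itgb2* and 1.04 (standard error 1.15) for *Itgal*, with limma adjusted p of 0.705 and 0.788. That of *Itgb2* was -0.18 without ND IEL 2, and that of *Itgal* was 0.30 without PA LP 1.

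PA milk was compared with ND within each layer, to see whether these genes differed with the milk given in early life. The study describes fostering for PA milk mice but not for ND mice, so milk diet and fostering cannot be told apart. In IEL, limma called 0 of the 9 genes and 0% of all genes tested, with 2 of the 9 and 447 of the 12502 genes at an unadjusted p under 0.05. *Itgb2* had the larger of these differences. Its 3 PA IEL libraries, from 34.5 to 156 FPKM, were all above its 3 ND IEL libraries, from 0.0294 to 31.0, but PA IEL 3 and ND IEL 3 were close, at 34.5 and 31.0. The log2 fold change was 3.16 (standard error 1.17, limma adjusted p = 0.947), and the exact permutation p was 0.1, the smallest that 3 against 3 allow. Without ND IEL 2, which held 1 read of *Itgb2*, it was 1.55. The mean was 99.1 ± 60.9 (SD, n = 3) in PA milk, beside 18.6 ± 16.4 (SD, n = 3) in ND.

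*Itgae* and *Itga1* were listed at 0 in every PA IEL library. The log2 fold change of *Itgae* in IEL was -2.62 (standard error 0.99, unadjusted p = 0.0175, limma adjusted p = 0.947), and the groups overlapped because ND IEL 2 was at 0 as well. It was -3.93 without ND IEL 2. Of the T cell markers, 9 of the 11 also had a lower mean in PA IEL (median log2 fold change -2.37). So did 6 of the 9 tested of NK cells and ILC1s (-1.01) and all 12 of epithelial cells (-1.70), beside a median of -0.30 for all genes tested. Of the ILC3 markers, 12 of the 15 had a higher mean in PA IEL (0.8). Lower means were found for 5 of 10 markers of macrophages and dendritic cells (0.25) and 4 of 6 tested of B and plasma cells (-0.27). For endothelial and stromal cells they were found for 4 of 10 (0.02). The part of any of these lists in the difference of *Itgae* was not tested. For *Itga1* the groups did not overlap, with ND IEL from 0.162 to 1.28, but the log2 fold change was -0.79 (standard error 0.91, limma adjusted p = 0.955). Groups did not overlap for 2 of the 9 genes in IEL, *Itgb2* and *Itga1*, beside 8.19% of all genes tested. *Cd69* at 2.19 and *Itgal* at 1.89 had positive log2 fold changes in IEL of about their standard errors of 1.66 and 1.62. That of *Cd69* rested on ND IEL 2 and was -0.11 without it. *Itga4*, *Itgb7* and *Klf2* had values of -0.01, 0.00 and 0.27, each smaller than its standard error, and that of *Klf2* was -0.12 after scaling on genes common to leukocytes. *S1pr1* was at -1.36 (standard error 1.72).

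In LP, limma also called 0 of the 9 genes and 0% of all genes tested, with 1 of the 9 and 588 of the 12502 genes at an unadjusted p under 0.05. That gene was *Cd69*, with 0 to 60.9 FPKM in PA LP against 75.9 to 225 in ND LP, so all 3 PA libraries were below all 3 ND libraries. The mean was 25.6 ± 31.6 (SD, n = 3) in PA milk, beside 146 ± 75.2 (SD, n = 3) in ND. limma gave a log2 fold change of -3.72 (standard error 1.66, unadjusted p = 0.0394, limma adjusted p = 0.979), with an exact permutation p of 0.1, and it was -2.05 without PA LP 2. *Cd69* was the only one of the 9 genes whose diet groups did not overlap in LP, beside 9.57% of all genes tested. Of the ILC3 markers, 14 of the 15 had a lower mean in PA LP, 4 of them with an unadjusted p under 0.05, and their summed FPKM was 99.3 to 561 in PA LP against 989 to 5482 in ND LP. The median log2 fold change of these markers was -1.68, against -0.36 for all genes tested. Markers of some other cells were also lower in PA LP, with 10 of 11 for T cells (median -1.78). The same held for 6 of 6 tested for B and plasma cells (-4.08) and 12 of 12 for epithelial cells (-2.08). Higher means in PA LP were found for 8 of 10 markers of macrophages and dendritic cells (0.68). They were also found for 5 of 9 tested of NK cells and ILC1s (0.38) and 5 of 10 of endothelial and stromal cells (-0.1). The part of any of these in the difference of *Cd69* was not tested.

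The other 8 genes had log2 fold changes of -1.30 to 0.83 in LP, each smaller than its standard error. *Klf2* was at -0.28 (standard error 0.86) and *S1pr1* at -1.30 (standard error 1.72), and without PA LP 2 both turned positive, to 0.83 and 1.34. Their order across the 4 groups by mean FPKM was PA LP, ND LP and then the IEL groups. For *Klf2* the means were 497 ± 457, 385 ± 127, and 38.7 ± 16.8 in PA IEL (SD, n = 3 each), with 19.3 to 56.3 in ND IEL. Between the diets within a layer, the exact permutation p of *Klf2* was 0.9 in LP and 0.6 in IEL and that of *S1pr1* 0.9 and 0.3, where 3 against 3 cannot go below 0.1, so the groups of a layer could not be ordered.

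**Figure D3:**
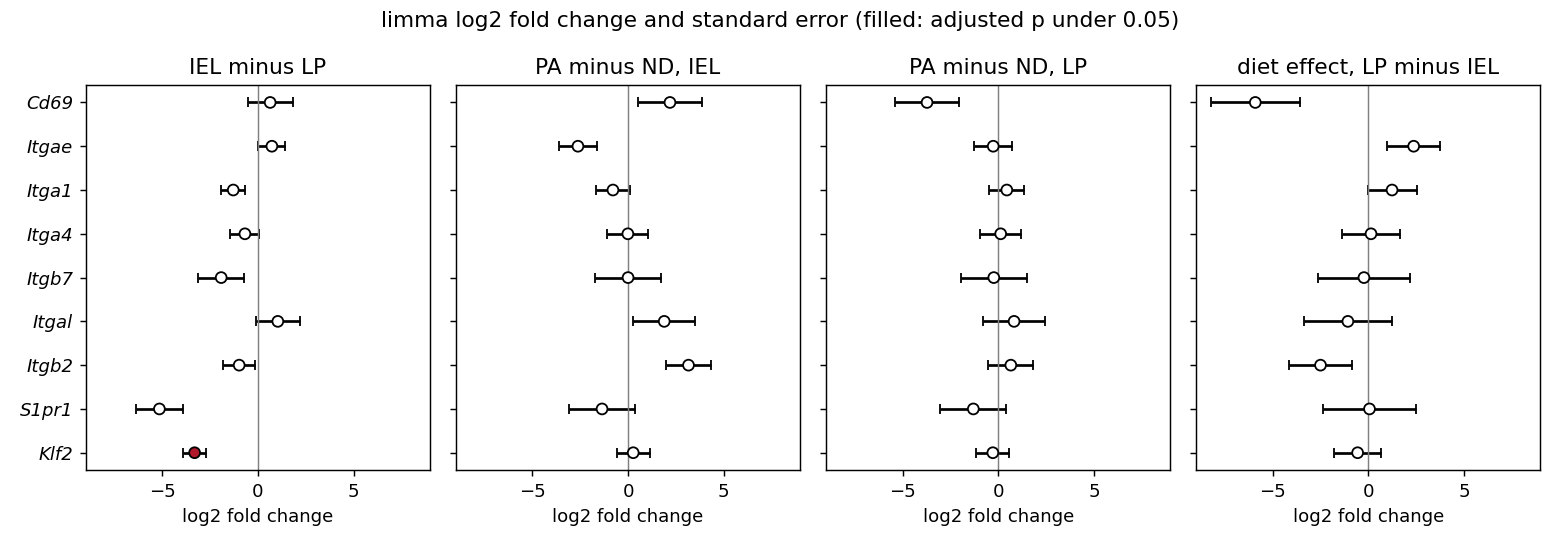
limma log2 fold change (x axis) with its standard error for each of the 9 genes in 4 comparisons; filled points have an adjusted p under 0.05. Only *Klf2* in the comparison of the layers is filled, at -3.31. The point of *S1pr1* (-5.15) lies further from 0 there, with a wider bar, and is not filled.

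The diet effect of *Cd69* was 2.19 in IEL and -3.72 in LP, but the value in IEL was -0.11 without ND IEL 2. The difference of LP minus IEL was -5.91 (standard error 2.34, unadjusted p = 0.0229), and it did not pass the adjustment over all genes (limma adjusted p = 1). limma called 0 genes for this difference among all 12502 tested, 0% of them, with 292 at an unadjusted p under 0.05. Leaving out 1 library at a time moved the value between -7.36 and -3.60, the latter without ND IEL 2, and without the 3 libraries with the fewest genes it was -2.05. For ILC3 markers the difference was below 0 in 14 of 15 (median -2.14), and for B and plasma cells in 6 of 6 tested (-3.0). For T cells it was below 0 in 4 of 11 (0.98) and for NK cells and ILC1s in 2 of 9 tested (1.54). The median of all genes tested was -0.03. The part of these lists in the difference of *Cd69* was not tested. For *Itgb2* the difference was -2.50 (standard error 1.65) and for *Itgae* 2.37 (standard error 1.40), and without ND IEL 2 these were -0.90 and 3.68. The other 6 genes lay between -1.07 and 1.24, each within its standard error. The comparisons in IEL and LP use separate libraries, but the difference is built from both.

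**Figure D4:**
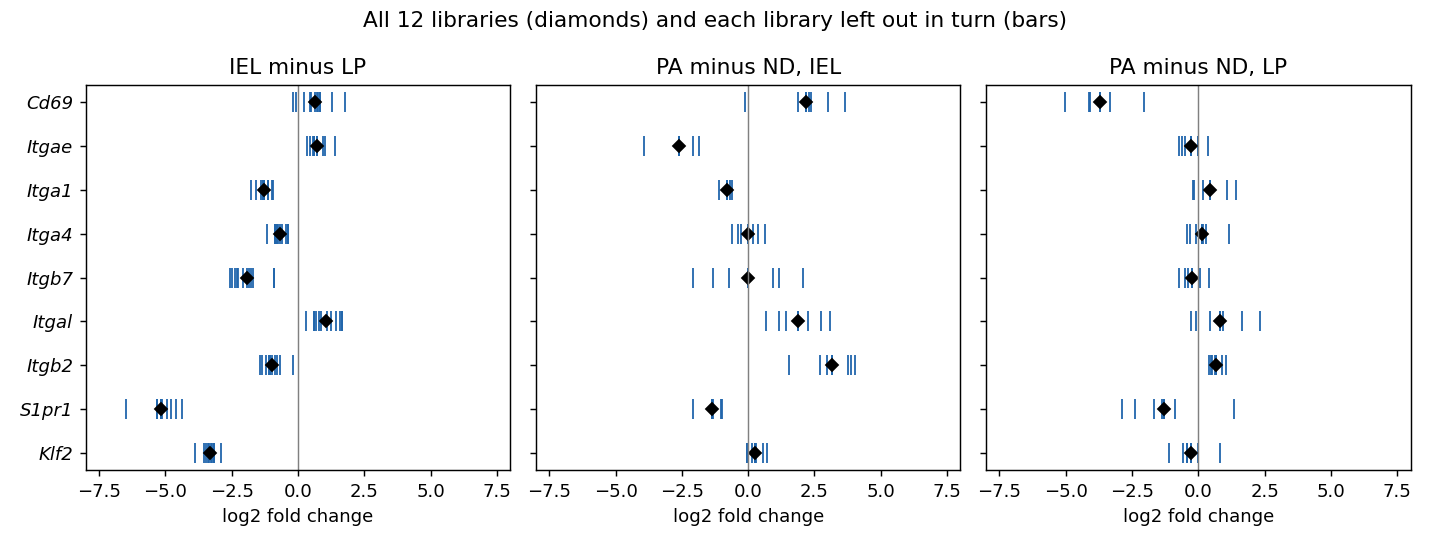
log2 fold change of each gene with all 12 libraries (diamonds) and after leaving out 1 library at a time (bars), in 3 comparisons. The layer values of *Klf2* stay between -3.87 and -2.89, whereas the diet values of *Itgb7* in IEL run from -2.07 to 2.06.

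Among themselves the 9 genes fell into no single pattern. Of the 36 pairs, 7 had a Spearman's rho above 0.5 over the 12 libraries and 10 had a rho below 0, given as descriptions over libraries that differ in layer and in number of genes. *S1pr1* had the highest rho with *Itga1* (0.93), *Itga4* (0.73) and *Klf2* (0.72), and *Klf2* had 0.68 with *Itga1*. *Itgal* and *S1pr1* had the lowest, -0.50. The subunits that pair in 1 receptor had lower values. *Itgal* and *Itgb2* had 0.48, *Itgae* and *Itgb7* 0.18, and *Itga4* and *Itgb7* 0.09. *Cd69* had 0.18 with *S1pr1* and 0.01 with *Klf2*.

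**Figure D5:**
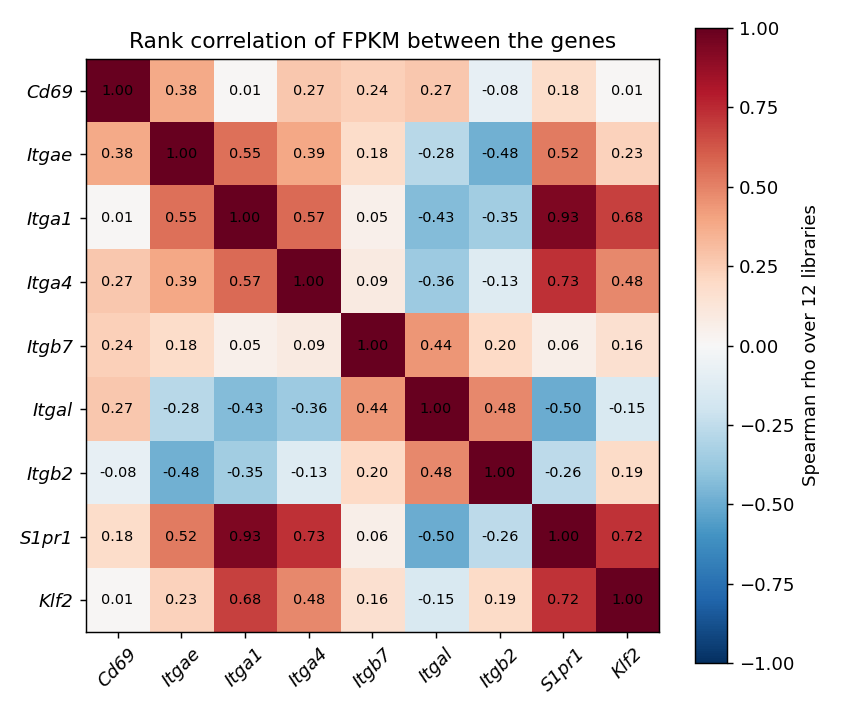
Spearman's rho of FPKM between each pair of the 9 genes over the 12 libraries, from -1 (blue) to 1 (red). *S1pr1*, *Klf2*, *Itga1* and *Itga4* form the block of positive values, up to 0.93 for *Itga1* with *S1pr1*.

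Each gene was also set against 8379 other genes that reached 10 FPKM in at least 3 libraries. *Klf2* was most like *BC020535* (rho 0.97), *Myl12a*, a myosin light chain (0.95), and *Vim*, the intermediate filament of mesenchymal cells and leukocytes (0.94). *S1pr1* was most like *Ets2*, an ETS family transcription factor (0.97), *Pqbp1* (0.97) and *4933424B01Rik* (0.96). *Itgae* was most like *Gimap7* (0.94), *3110009E18Rik* (0.93) and *Gzmb* (0.91). *Gzmb*, the granzyme B of cytotoxic lymphocytes, stood at 407 and 649 FPKM in the ND IEL libraries 1 and 3 where *Itgae* was highest, and at 0 in all 3 PA IEL libraries. *Itga1* was most like *Rasd1* (0.97), *Slc12a7* (0.95) and *Fam174b* (0.94). *Itga4* was most like *Elovl5*, a fatty acid elongase (0.98), *N4bp3* (0.96) and *Wipi1* (0.94), and *Itgb7* most like *1200011M11Rik* (0.97), *Ccm2* (0.94) and *Vps16* (0.94). *Itgal* was most like *Selplg*, the ligand of P-selectin (0.94), *Spns1* (0.90) and *Efr3a* (0.87), and *Itgb2* most like *BC035044* (0.91), *Vav3* (0.90) and *Fyttd1* (0.88). *Cd69* was most like *Iltifb* (0.92), *Prickle3* (0.87) and *Rora*, which encodes a nuclear receptor of innate lymphoid cells (0.84). *Iltifb* is a near copy of *Il22*, and how reads were shared between them is not known. The highest of so many values over 12 libraries is high by construction, and no p is given.

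Of 14 other egress and recirculation genes tested, 7 had a higher and 7 a lower mean in IEL, with a median log2 fold change of 0.00 and 0 called. At an unadjusted limma p under 0.05 were 2 higher and 4 lower, beside 1681 of the 12502 genes tested in either direction. *Spns2*, a transporter that releases sphingosine-1-phosphate, was at 0, 0.0480 and 4.32 FPKM in PA IEL, 3.71, 72.1 and 4.56 in ND IEL and 29.4 to 64.9 in LP (log2 fold change -3.33, standard error 0.86, limma adjusted p = 0.0742). *Sgpl1*, the lyase that breaks sphingosine-1-phosphate down, was at 23.3 to 153 in IEL and 8.87 to 34.2 in LP (1.69, standard error 0.63, adjusted p = 0.237 from limma). *Ccr7*, the receptor that guides cells into lymph nodes, was at 0 to 29.7 in IEL and 0.0516 to 169 in LP. *Lef1*, a factor of naive lymphocytes, was at 0 to 7.50 and 0 to 35.7. *Gnai2*, the G protein subunit through which such receptors signal, had the highest mean of the list, at 141 to 548 and 302 to 571. In LP, *Tcf7*, a factor of lymphoid progenitors and ILC3s, was at 0, 0 and 25.6 FPKM for PA milk, beside 81.4, 68.0 and 24.8 in ND (diet log2 fold change -4.14, limma unadjusted p = 0.0349). In IEL it was at 94.8, 0 and 61.4 in PA milk, beside 10.6, 0 and 20.5 in ND. The diet log2 fold change there was 1.53 (standard error 1.8). Its difference of the diet effect, LP minus IEL, was -5.67 (limma unadjusted p = 0.0403, not called).

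Of 9 gut homing receptors tested, 4 had a higher and 5 a lower mean in IEL. *Ccr9*, the receptor of the small intestinal chemokine CCL25, was at 14.9 to 124 FPKM in IEL and 0.0189 to 52.7 in LP (log2 fold change 2.87, standard error 0.99, limma adjusted p = 0.194). *Gpr183*, an oxysterol receptor, was at 0.0854, 0.0667 and 59.7 in PA LP against 47.5, 166 and 74.0 in ND LP (diet log2 fold change -4.36, limma unadjusted p = 0.022). *Ccr6*, the receptor of CCL20, was at 0.0768, 0 and 15.3 in PA LP against 117, 31.2 and 22.4 in ND LP (diet log2 fold change -4.10, limma unadjusted p = 0.045). In IEL the sign of *Ccr6* was opposite, at 133, 0 and 117 in PA milk, beside 27.9, 0 and 32.9 in ND. Its diet log2 fold change there was 1.34 (standard error 1.88). *Rxra*, a retinoid receptor, was at most at 2.2 in PA IEL and at 10.9, 14.5 and 11.7 in ND IEL, without overlap (diet log2 fold change -2.69, limma unadjusted p = 0.0498). Diet groups did not overlap in IEL for 8.19% of all genes tested. In LP the diet log2 fold change of *Rxra* was 0.48 (standard error 1.26). In both layers 7 of the 9 had a lower mean in PA milk, with 0 called in either layer, medians of -0.48 in IEL and -0.61 in LP, and -0.30 and -0.36 for all genes tested.

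Of 13 residency regulators tested, 11 had a lower mean in PA milk in LP and 6 in IEL, with medians of -1.70 and 0.21, beside -0.36 and -0.30 for all genes tested, and 0 called in either layer. The ILC3 markers, given above, were also lower in PA LP. *Cxcr6*, the receptor of CXCL16, was the 1 member with an unadjusted p under 0.05 in LP. It was at 0, 0 and 48.9 FPKM in PA LP against 125, 93.1 and 65.8 in ND LP (diet log2 fold change -4.65, limma unadjusted p = 0.0431). In IEL the sign was opposite, at 269.6, 0 and 253 in PA milk, beside 43.9, 0.0925 and 92.0 in ND. The diet log2 fold change of *Cxcr6* there was 1.31 (standard error 2.11). *Nr4a1*, an immediate early nuclear receptor with the highest mean of the list, was at 704, 1.33 and 1036 FPKM in PA LP against 496 to 644 in ND LP. *Rgs2*, which damps G protein signals, reached 68.6 in 1 of the 3 PA LP libraries, the other two lying below the 46.7 to 109 of ND LP, with a difference of the diet effect between layers of -3.05 (limma unadjusted p = 0.0393, adjusted p = 1). Of 15 other integrin chains tested, 5 had a higher and 10 a lower mean in IEL, with 0 called. *Itga3*, a laminin-binding chain, was at 15.3 to 57.9 FPKM in IEL and 0.0196 to 15.4 in LP (log2 fold change 2.14, limma adjusted p = 0.256). *Itgam*, the alpha chain of the myeloid receptor CD11b that also pairs with beta 2, was at 0 to 13.6 in IEL and 0 to 0.815 in LP (1.59, limma adjusted p = 0.309). *Itgb1*, the partner of alpha 1 and of alpha 4 in other receptors, had the highest mean of this list, at 0.0913 to 36.6 in IEL and 1.07 to 166 in LP. Among 10 adaptors of integrin activation, 4 had a higher and 6 a lower mean in IEL with 0 called, and *Rap1b*, the small GTPase with the highest mean, was at 88.5 to 452 in IEL and 205 to 522 in LP.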

How the data were processed

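RNA of ILC3s was analysed in 12 libraries, 3 in each of 4 groups taken from the sample labels. Per the labels and the study's methods, the authors made libraries with a SMART-Seq kit, mapped reads to mm10 and deposited FPKM values for 23284 genes. The submitters' processing notes name TopHat2 2.1.1, Bowtie2 2.2.8.0, SAMtools 0.1.18, Cufflinks 2.2.1 and Cuffdiff 2.2.1. The count table the authors deposited holds a scaled signal, counts divided by a size factor and rounded, and served only to find the reads behind values (90.7% to 98.0% of low values lay within 0.05 of a whole multiple of 1 read). cDNA was amplified by PCR without molecular identifiers, so read numbers and the floor of 3 reads cover counting error only, and a value of 0 does not show absence. The sort is given with CD4 in the methods and with CD45 elsewhere in the study.

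Genes at 1 FPKM or more in at least 3 libraries (12502) were fitted as log2(FPKM + 1) with limma 3.58.1 (trend, R 4.3.3), with 4 group means over all 12 libraries. Benjamini-Hochberg adjustment ran over all genes, and adjusted p under 0.05 was called. All 9 genes passed the filter. Single genes were also tested by exact permutation, for which 3 against 3 cannot go below p = 0.1 and the layers within diets not below 0.005. The members, lists and tests were chosen with earlier results of these data known. From each list the gene with the highest mean and those with an unadjusted p under 0.05 are named, at most 4 per comparison, and for each of the 9 genes the 3 genes most like it, and 1 marker of the ILC3 list counts in its totals but is not reported here. Alternatives were other pseudocounts, filters and scalings, replicate blocks, layers alone, and libraries left out. The code was tested on simulated data. Python 3.11.15, numpy 2.4.6, pandas 2.3.3, scipy 1.17.1 and matplotlib 3.10.9 were used.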

Additional observations from a re-analysis of the deposited data

How the results depend on the processing

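Whether replicate numbers pair the libraries, by mouse or by day, is not stated in the labels. Same-numbered libraries had correlations of -0.12 to 0.07 in their deviations from the group means. With group means of so few libraries, these values cannot decide it. With the replicate block, limma called 103 genes between the layers and 3 for the diet in LP, and with a block by diet and number 29 between the layers and 1 for the difference of the diet effect. The planned count model on recovered reads was not run, since the deposited counts are rounded after scaling. limma-voom on scaled counts (76 genes between the layers) took its place and was chosen after seeing the data, as was leaving out the 3 libraries with the fewest genes. Against the 110 genes called between the layers, a pseudocount of 0.1 gave 58, no filter 30, scaling on genes common to leukocytes 63, leaving out PA IEL 2 and PA LP 2 826, and leaving out the 3 libraries 680. Leaving out the 3 libraries gave 1 call for the diet in IEL. With each library left out in turn, 37 to 521 genes were called between the layers, 0 to 8 for the diet in LP and 0 to 1 in IEL. Leukocyte scaling moved the median of all genes from -0.30 to -0.49 in IEL, from -0.08 to 0.05 between the layers and from -0.03 to 0.26 for the difference.

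Of 756 values of the 9 genes under alternatives, 678 kept direction and side of the threshold, 66 reversed in direction, 3 gained a call (all *S1pr1* between the layers) and 9 lost it (all *Klf2* between the layers), and 18 of 36 results never reversed. The cause of the reversals was not tested. *Klf2* between the layers was at -3.31 with a block by diet and number (adjusted p = 0.0936). Values that reversed without PA IEL 2 and PA LP 2 were *Itga4* (0.63) and *Klf2* (-0.05) in IEL, *Itgal* (-0.29), *S1pr1* (1.34) and *Klf2* (0.83) in LP, *Cd69* between the layers (-0.13) and *Klf2* in the difference (0.88). Without the 3 libraries they were *Itga4* (0.04), *Itgb7* (-0.01) and *Klf2* (-0.35) in IEL, *Itgal* (-0.29), *S1pr1* (1.34) and *Klf2* (0.83) in LP, *Itgb7* between the layers (0.38) and *Klf2* in the difference (1.18). Upper quartile scaling gave -0.06 for *Itgb7* in IEL, and leukocyte scaling -0.08 for *Itgb7* and -0.12 for *Klf2*. limma-voom gave -0.88 for *Itga1*, -2.13 for *Itga4* and -0.12 for *Itgal* in LP and -0.80 for *Itga4* in the difference, and a pseudocount of 0.1 gave -0.68 and -0.43 for *Itga4* in LP and in the difference.

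With each library left out in turn, values that reversed lay at -0.11 to 3.65 for *Cd69*, -0.59 to 0.63 for *Itga4*, -2.07 to 2.06 for *Itgb7* and -0.05 to 0.71 for *Klf2* for the diet in IEL. They lay at -0.71 to 0.35 for *Itgae*, -0.21 to 1.41 for *Itga1*, -0.44 to 1.14 for *Itga4*, -0.71 to 0.42 for *Itgb7*, -0.29 to 2.31 for *Itgal*, -2.88 to 1.34 for *S1pr1* and -1.12 to 0.83 for *Klf2* for the diet in LP. They lay at -0.19 to 1.79 for *Cd69* between the layers. They lay at -0.50 to 1.14 for *Itga4*, -2.29 to 1.84 for *Itgb7*, -2.28 to 0.41 for *Itgal*, -1.52 to 2.71 for *S1pr1* and -1.39 to 0.56 for *Klf2* for the difference of the diet effect. PA IEL 2, PA LP 2 and ND IEL 2 held fewer than 3 reads of several of the 9 genes at 9.84 to 14.58 M reads per library.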
